A study of Drosophila melanogaster with 36 samples.

Results

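Glutathione transferases are detoxification enzymes that join the tripeptide glutathione to reactive compounds, among them insecticides, plant toxins and products of lipid oxidation. The 35 genes described here are those whose FlyBase symbol is Gst followed by a class letter (D, E, O, S, T or Z) and a number, out of 17552 genes in the count table. All 35 had a line in the table. They comprise 11 genes of the delta class, 14 of the epsilon class, 3 of the omega class, 1 of the sigma class, 4 of the theta class and 2 of the zeta class.

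RNA was sequenced from heads and abdomens of Drosophila melanogaster females of the IV base population that had been mated to polygamous males, mated to monogamous males, or kept as virgins. The males came from populations derived from IV and held for 182 generations at a census size of 200, either in polygamous groups of 5 females and 5 males (P1, P2 and P3) or as randomly formed monogamous pairs (M1, M2 and M3), followed by a common garden generation. Females were frozen at an age of 4 days, 24 h after mating where they had mated, and a library pooled 20 heads or 20 abdomens. Each of the 6 groups had 3 libraries, and a mated library stands for 1 male population, so n counts male populations in the mated groups and pools of virgins in the virgin groups. The design asks whether the regime under which males evolved altered the expression of genes in their mates. Expression is given as CPM, counts scaled to a library total of 1000000, and comparisons between genes as CPM per kilobase of exon.

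The delta and epsilon classes are known as insect-specific expansions that hold many of the enzymes acting on insecticides, whereas omega, sigma, theta and zeta enzymes occur widely in animals. Several members have a known individual role. GstD1 can dechlorinate the insecticide DDT, GstS1 is abundant in flight muscle and acts on the lipid oxidation product 4-hydroxynonenal, and GstE14 (noppera-bo) is required for ecdysone synthesis in the prothoracic gland of larvae. The zeta class includes maleylacetoacetate isomerase, an enzyme of tyrosine breakdown. In abdomens, the fat body, gut and renal tubules are well-known sites of detoxification.

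Library totals were 41057456 to 56772245 counts in abdomens and 40396031 to 64761633 in heads. The summed CPM of 9 neuron genes was 10.8 to 20.2 in mated and 6.69 to 9.63 in virgin abdomens, against 3128 to 3936 in mated and 3374 to 4235 in virgin heads, as the tissue labels state. Some libraries stood apart from others of their group. Summed CPM of 29 midgut protease genes was 6737 in head M1, 14011 in head M2 and 9073 in head virgin 1, against at most 96.2 in the other heads. Summed CPM of 7 early zygotic genes, used as marks of embryos, was 6.50, 8.72 and 5.39 in abdomens P1, P3 and M2, against at most 0.194 in the other abdomens. Heads, virgins included, had 0.695 to 0.931, so counts of these genes do not come from embryos alone. For none of the 35 members did the 3 heads with midgut transcripts lie wholly above or wholly below the other 6 heads. Of all genes tested in heads, 3.08% lay wholly above and 4.82% wholly below.

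The members lie in a few groups in the genome (BDGP6). All 11 delta genes occupy 20.8 kb of chromosome arm 3R (12364776 to 12385624). GstD10, GstD9 and GstD1 are on the minus strand, and the other 8 are on the plus strand. The 10 genes GstE1 to GstE10 lie within 13.2 kb of arm 2R (18396638 to 18409835), and GstE11 to GstE14 lie elsewhere on that arm. The 3 omega genes share 6.0 kb of arm 3L, the zeta genes 5.1 kb of arm 3R, and GstT1 and GstT2 a stretch of 2.4 kb on arm 2R. GstT3 and GstT4 are on the X chromosome. For 7 members, exon bases are shared with a gene on the opposite strand, by 223 bases for GstT2 and by 6 to 61 bases for the others. The strand setting of the counting is not given in the sources used here, so counts of these 7 members are uncertain to that extent, as are counts between similar neighbours in a cluster.

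Levels per kilobase spanned several orders of magnitude, and GstD1 had the highest mean in both tissues. It averaged 664 ± 91.0 CPM per kilobase in abdomens and 364 ± 56.2 in heads (SD, n = 9 libraries each). In abdomens the members next in order were GstE6 at 152 ± 16.7, GstE12 at 116 ± 22.7, GstE1 at 105 ± 39.1 and GstT1 at 83.4 ± 4.87 CPM per kilobase. The gaps between GstE6 and GstE12, GstE12 and GstE1, and GstE1 and GstT1 were each smaller than the sum of the neighbours' SDs. In heads, GstE12 at 325 ± 11.0 and GstE1 at 234 ± 73.2 CPM per kilobase followed GstD1, then GstE9 at 97.7 ± 15.0 and GstE6 at 71.6 ± 9.97. The gap between GstD1 and GstE12 in heads was smaller than the sum of their SDs, and GstE12 was the higher of both in 2 of the 9 heads (M3 and virgin 2). Of all reads counted in members, GstD1 alone took 34.5% in abdomens and GstE12 alone 26.5% in heads, and the top 5 members took 64.3% in abdomens and 66.9% in heads, shares that also reflect exon length.

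Neighbours within a cluster had very different levels. Between GstE3 and GstE5 in chromosomal order lies GstE4. It averaged 0.0836 CPM per kilobase in abdomens and 65.8 in heads, where GstE3 had 16.5 in abdomens and 48.9 in heads and GstE5 had 5.42 in abdomens and 17.2 in heads. At the edge of the same cluster, GstE10 averaged 6.89 CPM per kilobase in abdomens and 0.164 in heads. Its neighbour GstE1, on the opposite strand, had 105 in abdomens and 234 in heads. In the delta cluster, GstD1 stood beside GstD2 at 1.91 CPM per kilobase in abdomens and 4.96 in heads. At its far end GstD11 averaged 0.170 in abdomens and 10.9 in heads. The weakest member in abdomens was GstE4, with 0 to 10 counts per library, and in heads GstD7, with 0 to 9 counts.

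**Figure D1:**
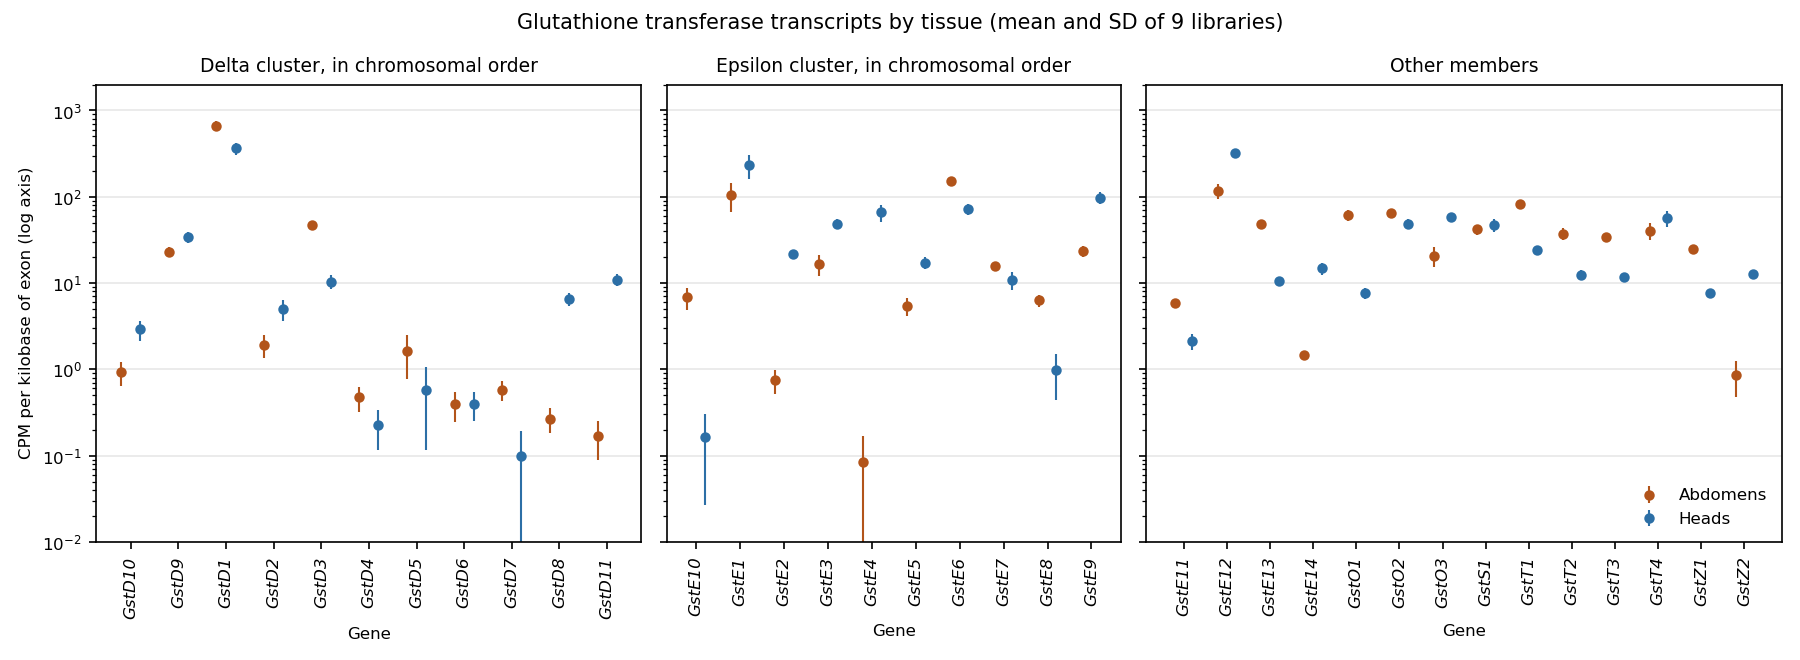
Mean level of each of the 35 members in CPM per kilobase of exon (log axis) in abdomens and heads, with lines for the SD over 9 libraries, and the delta and epsilon clusters in chromosomal order. GstD1 has the highest mean in both tissues, although in heads GstE12 (325 ± 11.0) is within its spread (364 ± 56.2), GstE4 is at 0.0836 in abdomens and 65.8 in heads while its neighbours GstE3 and GstE5 are at 16.5 and 5.42 in abdomens, and lines that reach the lower edge extend below the axis.

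Most members differed between tissues, as did most genes. In edgeR's quasi-likelihood test over all 18 libraries, at a Benjamini-Hochberg adjusted p of 0.05 with adjustment across every gene tested, 16 of the 35 members were higher in abdomens, 17 were lower, and GstD6 and GstE7 did not pass. The same test called 92.4% of 11631 genes, 46.9% higher and 45.5% lower in abdomens. All values below are log2 differences, abdomen minus head, in this fit. They include scaling factors (TMM) that printed CPM leave out, so ratios of printed CPM between tissues differ from them. The delta and epsilon clusters held members that differed in each direction.

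Among members higher in abdomens, GstE10 had the largest difference, 4.94 ± 0.26 (SE; adjusted p = 9.3e-12), with 3.83 to 10.5 CPM in abdomens and 0.0345 to 0.571 CPM in heads. GstO1 followed with 2.68 ± 0.07 (adjusted p = 1.3e-15), and then GstE8 with 2.36 ± 0.23 (adjusted p = 3.1e-08). In the theta class, GstT1, GstT2 and GstT3 were higher in abdomens, by 1.49, 1.28 and 1.23, while GstT4 was lower, at -0.80. GstD1 was higher by 0.57 ± 0.08.

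Among members lower in abdomens, GstE4 had the largest difference, -9.36 ± 0.29 (adjusted p = 3.0e-14). Its level was 0 to 0.244 CPM in abdomens and 28.7 to 69.6 CPM in heads. At 0 to 10 counts per abdomen library the size of this difference depended on the method, and DESeq2 gave -10.51 ± 0.37. GstD11 followed with -6.04 ± 0.19 (adjusted p = 7.0e-15) and GstE2 with -5.10 ± 0.14 (adjusted p = 1.0e-15). GstD8, GstZ2 and GstE14 were also much lower in abdomens, at -4.67, -4.31 and -3.61. The zeta pair thus went in opposite directions, since GstZ1 was higher in abdomens by 1.38 ± 0.06. Sigma-class GstS1 was at -0.47 ± 0.07. The smallest called difference was that of GstO2, 0.10 ± 0.04 (adjusted p = 0.0359). With DESeq2's size factors, which moved the median of all genes by -0.18, GstO2 turned to -0.08 and did not pass (adjusted p = 0.0729).

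After mating, 12 of the 34 members tested in abdomens changed: 9 rose and 3 fell, while 22 did not pass (edgeR, adjusted over all genes). The rises were led by GstZ2 and GstE1, and included GstO3, GstE10, GstE3 and GstE12. The falls, in GstT2, GstO1 and GstO2, were small. Of all 10350 genes tested in abdomens, 54.2% were called, 29.0% higher and 25.2% lower. Among members the shares were 35.3% called, 26.5% higher and 8.82% lower. The median log2 change was 0.28 over members and 0.04 over all genes. GstE4 was not tested in abdomens because of its low counts.

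GstZ2, of the class that includes maleylacetoacetate isomerase, lies on the minus strand of arm 3R (9456815 to 9460652). It had 2.07, 2.23 and 2.50 CPM in P abdomens, 2.57, 2.99 and 2.95 CPM in M abdomens, and 0.988, 0.879 and 0.786 CPM in virgin abdomens. Every mated library was above every virgin library. The rise was 2.85-fold, a log2 change of 1.51 ± 0.17 (SE, adjusted p = 1.9e-04), at 37 to 146 counts per library. The other zeta gene, GstZ1, was far more abundant in abdomens, at a mean of 22.5 CPM against 2.0 CPM for GstZ2. Its log2 change of 0.05 ± 0.10 did not pass (adjusted p = 0.681). The summed level of the zeta class overlapped between mated and virgin abdomens.

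GstE1, the first plus-strand gene of the epsilon cluster (18398393 to 18399223), had 126, 132 and 107 CPM in P abdomens, 90.0, 83.5 and 97.2 CPM in M abdomens, and 42.2, 56.3 and 48.5 CPM in virgin abdomens. The groups were fully separated, with P above M and M above virgin. The mated mean exceeded the virgin mean 2.19-fold, a log2 change of 1.13 ± 0.11 (adjusted p = 1.3e-04).

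In the same cluster, GstE3 had 16.2, 16.0 and 15.3 CPM in P abdomens, 14.5, 12.5 and 11.8 CPM in M abdomens, and 9.67, 9.61 and 6.76 CPM in virgin abdomens. GstE10 had 9.76, 10.2 and 8.37 CPM in P abdomens, 10.5, 8.07 and 7.55 CPM in M abdomens, and 6.29, 5.71 and 3.83 CPM in virgin abdomens. For both genes each mated library was above each virgin library. The log2 changes were 0.75 ± 0.14 for GstE3 (adjusted p = 0.00174) and 0.82 ± 0.19 for GstE10 (adjusted p = 0.00509). GstE10 and GstE1 lie on opposite strands and share 20 exon bases.

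GstE12 lies outside the cluster, on the minus strand of arm 2R (24766718 to 24768172), and is among the most abundant members. It had 193, 196 and 168 CPM in P abdomens, 196, 169 and 167 CPM in M abdomens, and 122, 134 and 114 CPM in virgin abdomens. Again no mated library overlapped a virgin one. Its log2 change was 0.59 ± 0.09 (adjusted p = 8.4e-04). It shares 33 exon bases with a gene on the opposite strand. The remaining 9 epsilon members tested did not pass, with GstE5 at 0.50 ± 0.20 (adjusted p = 0.0528) and GstE6, second in level, at 0.18 ± 0.10. Summed over the class, epsilon levels were 552, 591 and 541 CPM in P abdomens, 520, 488 and 494 CPM in M abdomens, and 403, 411 and 353 CPM in virgin abdomens, with no overlap between mated and virgin. The mean was 531 ± 38.6 CPM in mated (SD, n = 6) and 389 ± 31.4 CPM in virgin abdomens (SD, n = 3). Much of this difference lay in GstE1 (means of 106 and 49.0 CPM) and GstE12 (181 and 123 CPM). The sums of the other classes overlapped between mated and virgin abdomens. Mated means were lower for delta (601 and 653 CPM) and omega (181 and 203 CPM), and similar or higher for sigma, theta and zeta.

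The 3 omega genes moved in different directions. GstO3 had 21.6, 23.0 and 20.7 CPM in P abdomens, 21.4, 19.4 and 21.7 CPM in M abdomens, and 13.7, 14.3 and 9.01 CPM in virgin abdomens, so that all mated libraries were higher. It rose by 0.82 ± 0.15 on the log2 scale (adjusted p = 0.00147). GstO1 had 49.4, 52.6 and 62.6 CPM in P abdomens, 49.9, 55.5 and 51.5 CPM in M abdomens, and 75.0, 62.8 and 62.7 CPM in virgin abdomens, where the highest mated and the lowest virgin library nearly met. Its log2 change was -0.29 ± 0.09 (adjusted p = 0.0166). GstO2 had 96.8, 108 and 118 CPM in P abdomens, 101, 107 and 102 CPM in M abdomens, and 132, 119 and 119 CPM in virgin abdomens. The mated libraries were lower by a narrow margin, with a log2 change of -0.19 ± 0.07 (adjusted p = 0.0336) that was lost in 6 of the 9 fits that left out a single library.

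GstT2, a theta gene that shares 223 exon bases with an opposite-strand gene, had 27.8, 32.2 and 36.7 CPM in P abdomens, 26.6, 31.2 and 27.5 CPM in M abdomens, and 42.7, 37.7 and 35.4 CPM in virgin abdomens. P3 overlapped the virgin range. The log2 change was -0.32 ± 0.10 (adjusted p = 0.0183). Without virgin 1, GstO1 (adjusted p = 0.0858), GstO2 (0.134) and GstT2 (0.0890) all ceased to pass, so that no member was then called lower.

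GstS1 had 103, 116 and 99.9 CPM in P abdomens, 110, 86.0 and 90.2 CPM in M abdomens, and 74.8, 87.3 and 90.9 CPM in virgin abdomens, with overlap between M and virgin. Its log2 change of 0.29 ± 0.11 passed narrowly (adjusted p = 0.0395) and was lost in 7 of the 9 fits that left out a single library. Both delta genes that rose were at low levels. GstD2 had 1.50, 1.81 and 2.08 CPM in P abdomens, 1.69, 1.35 and 1.32 CPM in M abdomens, and 1.17, 0.879 and 0.829 CPM in virgin abdomens (log2 change 0.76 ± 0.20, adjusted p = 0.00973). Its mated libraries were all above the virgin ones. GstD5 had 2.47, 1.95 and 1.36 CPM in P abdomens, 0.634, 2.14 and 1.63 CPM in M abdomens, and 0.791, 0.787 and 0.531 CPM in virgin abdomens, where M1 fell inside the virgin range. It gave 1.24 ± 0.36 (adjusted p = 0.0154), and 0.0695 without virgin 3.

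GstD1, the most abundant member, had 605, 675 and 499 CPM in P abdomens, 507, 517 and 447 CPM in M abdomens, and 646, 531 and 612 CPM in virgin abdomens. These ranges overlapped, and its log2 change of -0.11 ± 0.11 did not pass (adjusted p = 0.438). GstE14 was at 1.15 to 1.70 CPM in every abdomen library and gave 0.26 ± 0.17 (adjusted p = 0.218). Over the whole family, summed levels were 1734, 1865 and 1650 CPM in P abdomens, 1609, 1564 and 1481 CPM in M abdomens, and 1650, 1527 and 1515 CPM in virgin abdomens, with wide overlap. In 8 members every mated abdomen was above every virgin abdomen (23.5%, against 24.5% of all genes), and in GstO1 and GstO2 every mated abdomen was below (5.88%, against 26.0%).

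**Figure D2:**
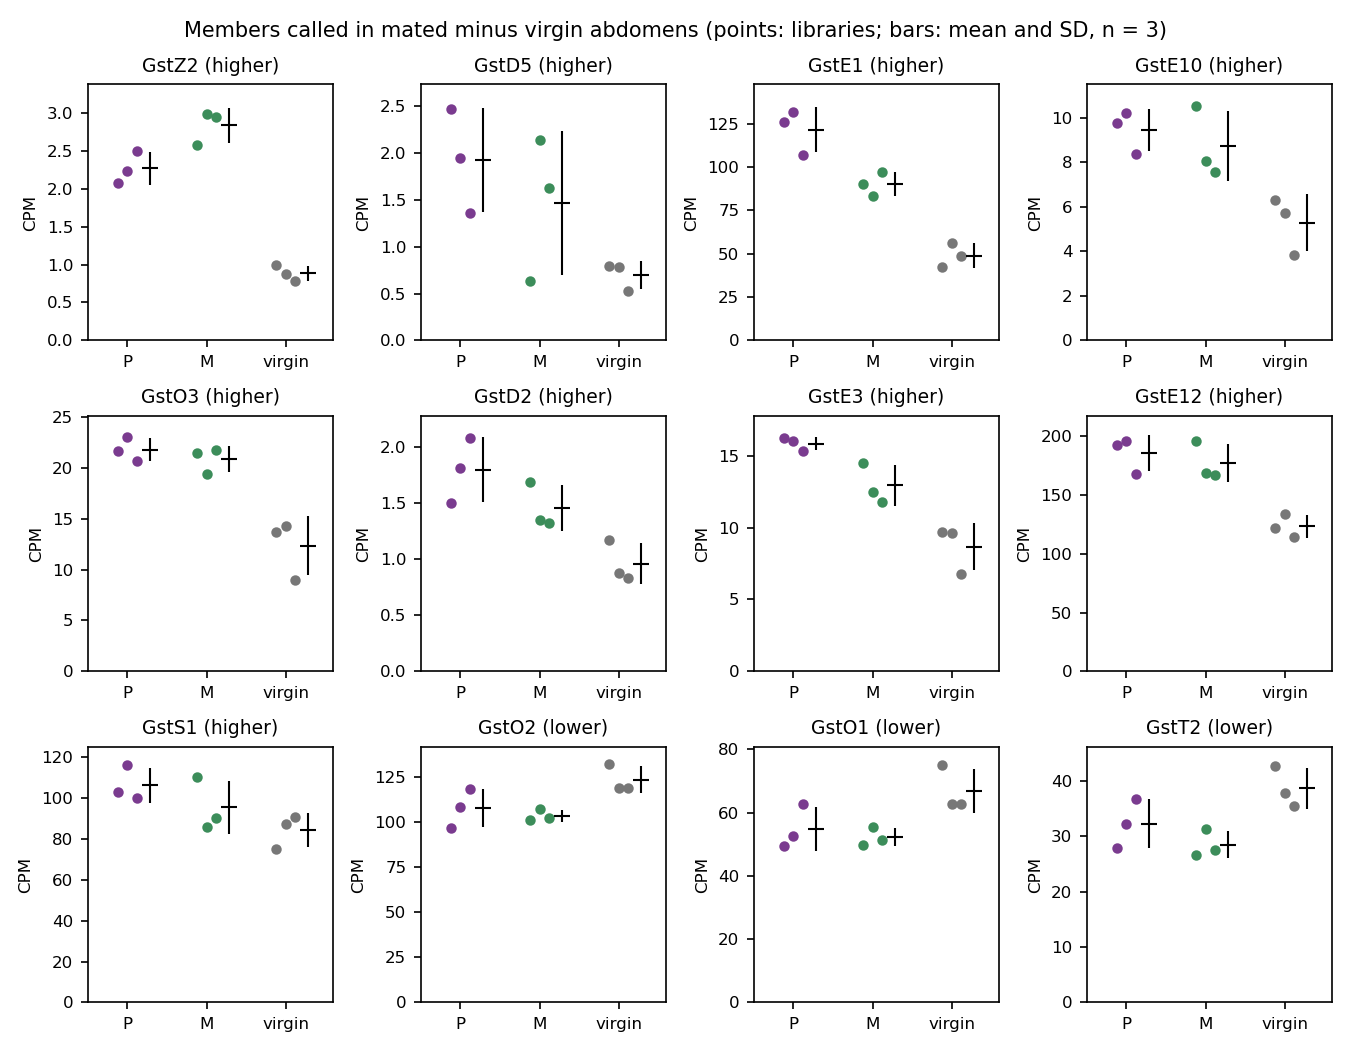
CPM of the 12 members called between mated and virgin abdomens, each panel with its own axis from 0, points for single libraries of the P, M and virgin groups, and a bar with a line for the mean and SD (n = 3). The P and M points of GstZ2, GstE1, GstO3, GstE10, GstE3, GstE12 and GstD2 all lie above the virgin points, while GstS1, GstD5 and GstT2 overlap.

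The share of tissue marker transcripts in the abdomen libraries moved with mating. Summed CPM of 23 muscle genes was 3286 to 3737 in mated and 1674 to 2039 in virgin abdomens (20 of 22 tested rose). That of 11 renal tubule genes was 430 to 508 in mated and 247 to 311 in virgin abdomens (10 of 11 rose), and that of 9 fat body genes 2537 to 3280 in mated and 1521 to 2098 in virgin abdomens (5 of 7 tested rose). Midgut protease genes summed to 4187 to 9110 CPM in mated and 1459 to 3200 CPM in virgin abdomens (24 of 27 tested rose, with gammaTry at 0 in all libraries). Germline and maternal genes summed to 10686 to 13270 CPM in mated and 14040 to 14792 CPM in virgin abdomens (12 of 20 tested fell and 2 rose, with cup at 0). Neuron genes rose for 5 of 9, and hemocyte genes for 1 of 6 tested, with sums of 86.7 to 112 CPM in mated and 39.9 to 76.1 CPM in virgin abdomens. In such whole-tissue samples, fewer cells of a type, less RNA per cell and altered expression of the marker genes themselves cannot be told apart. The part of these shifts in the members' changes was not tested.

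With TMM, the normalisation used throughout, libraries are scaled on the bulk of all genes. Scaling them instead on the summed muscle and renal tubule counts, which were themselves higher in mated abdomens, shifted the median change of all genes by -0.91 on the log2 scale, and the members' median became -0.63. Because this shift applies to all genes alike, GstZ2 alone was then called higher (0.64 ± 0.22, adjusted p = 0.0107), and 20 members were called lower. Among the 20 were GstE12 (-0.32 ± 0.12, adjusted p = 0.0222) and GstS1 (-0.63 ± 0.13, adjusted p = 7.8e-05), which were called higher with TMM. GstE1 (0.22 ± 0.13, adjusted p = 0.15) and GstD5 (0.38 ± 0.31, adjusted p = 0.29) stayed positive and did not pass. GstO3, GstE10, GstE3 and GstD2 had negative values that did not pass. The median of all genes was -0.86 on that scale. The share of all genes called there is not given here, so these counts do not set the members apart. A shift shared by all genes leaves differences from their median almost unaltered by construction, so these are no test of the rises. Relative to the median of all genes, the changes of the leading rises therefore differed little between the scales. On the muscle and tubule scale and on the TMM scale, that of GstZ2 was 1.50 and 1.47, that of GstE1 was 1.08 and 1.09, that of GstO3 was 0.79 and 0.78, that of GstE10 was 0.79 and 0.77, that of GstE3 was 0.72 and 0.71, and that of GstE12 was 0.55 on both. Without abdomens P1, P3 and M2, which held early zygotic transcripts, 11 of the 12 calls were kept, and GstD5 did not pass (1.04 ± 0.39, adjusted p = 0.0639).

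In heads, none of the 33 members tested was called between mated and virgin females by edgeR, where 2.21% of 10886 genes were called, 0.863% higher and 1.35% lower. GstD7 and GstE10 were not tested because of their low counts. At an unadjusted p below 0.05 there were 7 members, of 1708 genes. DESeq2 called 1 member, GstE14, lower (-0.32, adjusted p = 0.0239). The share of all genes that DESeq2 called in this comparison is not given here, so this count does not set the members apart. The members' median log2 change was -0.09, against -0.01 over all genes.

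GstE14, the ecdysone synthesis gene, had 15.5, 11.5 and 15.2 CPM in P heads, 13.2, 12.9 and 13.6 CPM in M heads, and 17.2, 16.8 and 18.7 CPM in virgin heads. All mated heads were below all virgin heads, with a log2 change of -0.32 ± 0.08 in edgeR (adjusted p = 0.0787). GstO2 had 77.0, 72.3 and 79.1 CPM in P heads, 78.6, 83.2 and 85.2 CPM in M heads, and 108, 86.6 and 93.0 CPM in virgin heads, again without overlap (-0.24 ± 0.07, adjusted p = 0.129). GstS1 had 98.0, 91.4 and 97.9 CPM in P heads, 95.2, 114 and 93.8 CPM in M heads, and 121, 109 and 146 CPM in virgin heads, where M2 reached the virgin range (-0.31 ± 0.10, adjusted p = 0.153). GstZ2, whose level in abdomens rose, had 30.9, 24.3 and 32.9 CPM in P heads, 32.3, 33.0 and 32.3 CPM in M heads, and 27.4, 26.8 and 26.2 CPM in virgin heads (0.25 ± 0.08, adjusted p = 0.156). Only P2 was below the virgin range.

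GstE1 alone had all mated heads above all virgin heads (3.03% of members, against 2.37% of genes), and GstE11, GstE14 and GstO2 had all mated heads below (9.09%, against 5.90%). GstE1 had 349, 198 and 192 CPM in P heads, 172, 200 and 171 CPM in M heads, and 169, 142 and 161 CPM in virgin heads, so that P1 stood far above the rest (0.47 ± 0.20, adjusted p = 0.325). Head virgin 1, which held midgut transcripts, was the highest of the 9 heads for 15 of 33 members and for 13.9% of all genes. Without it and the other 2 heads with midgut transcripts, no member and no gene was called, and the members' median was 0.04. The family sum was 1982, 1696 and 1655 CPM in P heads, 1626, 1706 and 1598 CPM in M heads, and 1870, 1514 and 1785 CPM in virgin heads.

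Tested directly, the mating effect differed between tissues for 8 of the 35 members, in each case toward a higher value in abdomens (22.9%, while 18.6% of all genes differed toward a higher and 18.6% toward a lower value). The difference was 1.20 ± 0.13 for GstZ2 (adjusted p = 2.1e-05), 0.84 ± 0.16 for GstE3 (0.00127), 0.72 ± 0.17 for GstO3 (0.00473) and 0.48 ± 0.12 for GstE12 (0.00538). These 4 kept their calls in all 18 fits that left out a single library. For GstS1 (0.53 ± 0.15, adjusted p = 0.0149) and GstE14 (0.52 ± 0.16, adjusted p = 0.0183) the fitted change was positive in abdomens and negative in heads, although neither was called in heads and GstE14 was called in neither tissue. GstE5 (0.64, adjusted p = 0.0335) and GstE1 (0.60, adjusted p = 0.0490) were near the threshold. Without the 3 heads with midgut transcripts, GstE14, GstE5 and GstE1 did not pass.

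**Figure D3:**
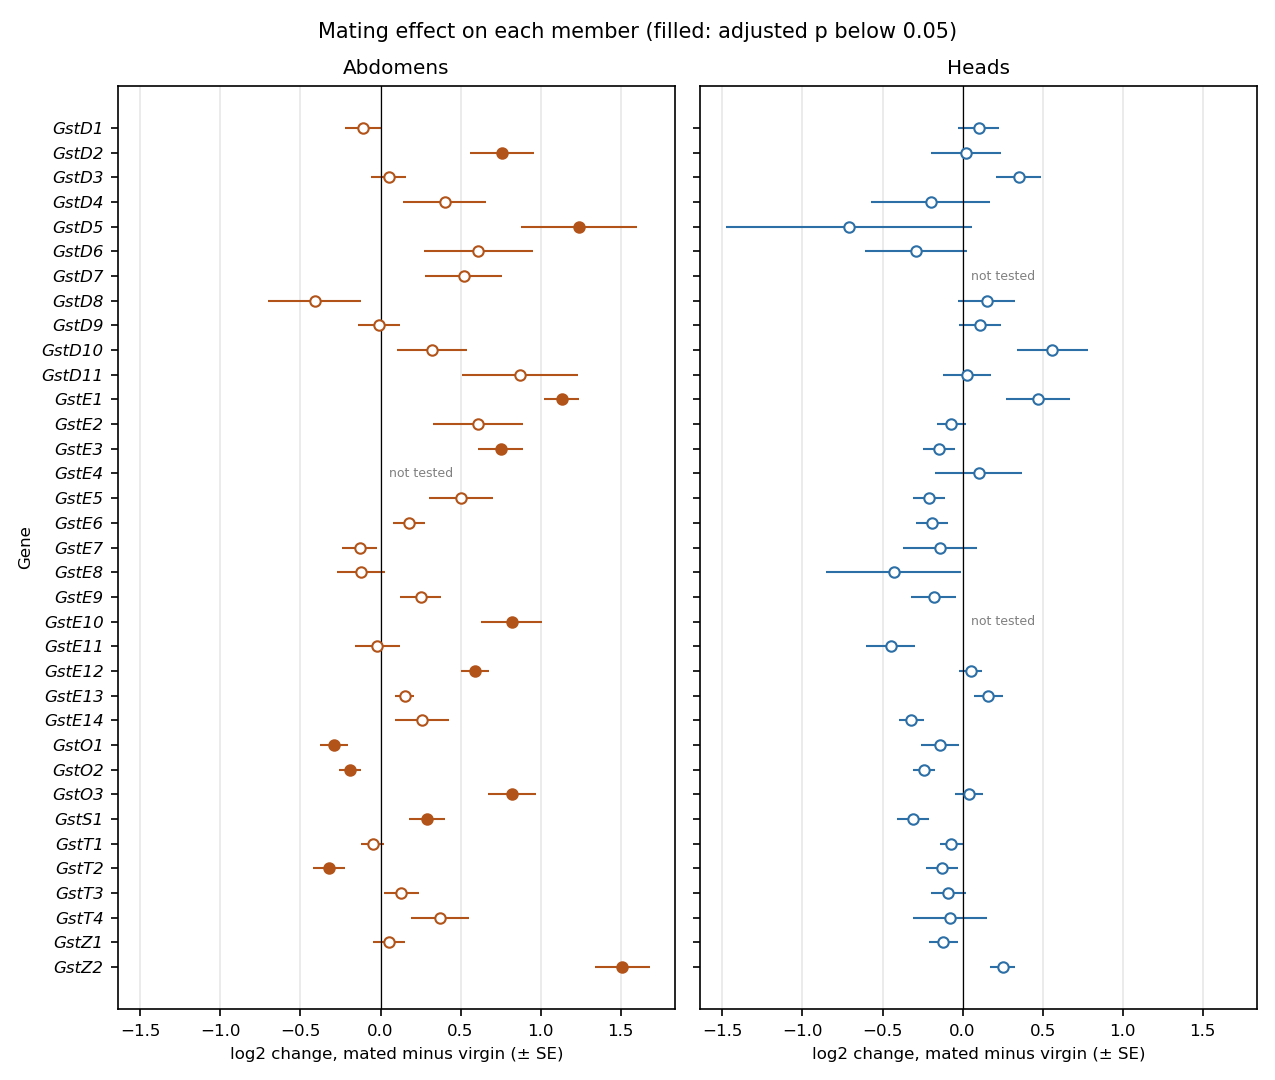
Log2 change, mated minus virgin, of each member in abdomens (left) and heads (right), with lines for the standard error and filled points for an adjusted p below 0.05. Filled points are found in abdomens alone, 9 to the right of 0 and 3 to the left, and the largest belongs to GstZ2 at 1.51.

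Between mates of polygamous and monogamous males, no member was called in either tissue, and no gene at all was called by edgeR (0% of 10350 genes in abdomens and 0% of 10886 genes in heads). At an unadjusted p below 0.05 there were 2 of 34 members and 185 genes in abdomens, and 0 of 33 members and 864 genes in heads. DESeq2 called no member and 14 genes in abdomens, and no member and 17 genes in heads. The 2 abdominal members were GstE1 and GstD10.

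GstE1, whose values are given above, was higher with P than with M mates in abdomens by 0.42 ± 0.13 (unadjusted p = 0.00660, adjusted p = 1 in edgeR), and in heads by 0.42 ± 0.23 (adjusted p = 0.614). Without P1 the difference in heads was 0.09 ± 0.12 (adjusted p = 0.918). GstD10, the delta gene at the cluster's edge, had 1.04, 1.28 and 0.994 CPM in P abdomens and 0.546, 0.726 and 0.658 CPM in M abdomens, with 0.810, 0.732 and 0.510 CPM in virgins (0.75 ± 0.25 between P and M, adjusted p = 1). Its P libraries stood above all others. For GstD1 the difference was 0.27 ± 0.13 in abdomens (adjusted p = 1) and 0.30 ± 0.15 in heads (adjusted p = 0.614), where it had 402, 346 and 290 CPM with P mates, 290, 289 and 251 CPM with M mates, and 311, 254 and 331 CPM in virgins.

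In 5 members, GstD10, GstE1, GstE3, GstE8 and GstE9, every P abdomen was above every M abdomen (14.7%, against 3.23% of all genes), and in GstZ2 every P abdomen was below (2.94%, against 2.04%). Each of these 5 had a log2 difference of 0.25 to 0.75 that did not pass. The direction was positive for 25 of 34 members in abdomens and for 52.4% of all genes, with a median of 0.10 over members and 0.01 over all genes. Members measured in the same libraries are not independent. Abdomen P2 was the highest of the 9 abdomens for 9 of the 34 members and for 10.9% of all genes, and virgin 3 was the lowest for 16 members and for 29.2% of all genes. Of the members tested in heads, GstD1 alone had every P library above every M library (3.03%, against 11.3%), and GstO3 alone every P library below (3.03%, against 3.61%). GstE10, not tested in heads because of its low counts, also had every P head below every M head. GstO3 had 47.3, 46.4 and 49.4 CPM with P mates and 53.9, 54.5 and 56.1 CPM with M mates, with 61.0, 44.8 and 48.0 CPM in virgins (-0.22 ± 0.11, adjusted p = 0.614). The GstZ2 difference in heads was -0.17 ± 0.09 (adjusted p = 0.614). The regime effect differed between tissues for no member (edgeR, 0% of 11631 genes called, 1 member and 741 genes at an unadjusted p below 0.05, and no member by DESeq2).

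**Figure D4:**
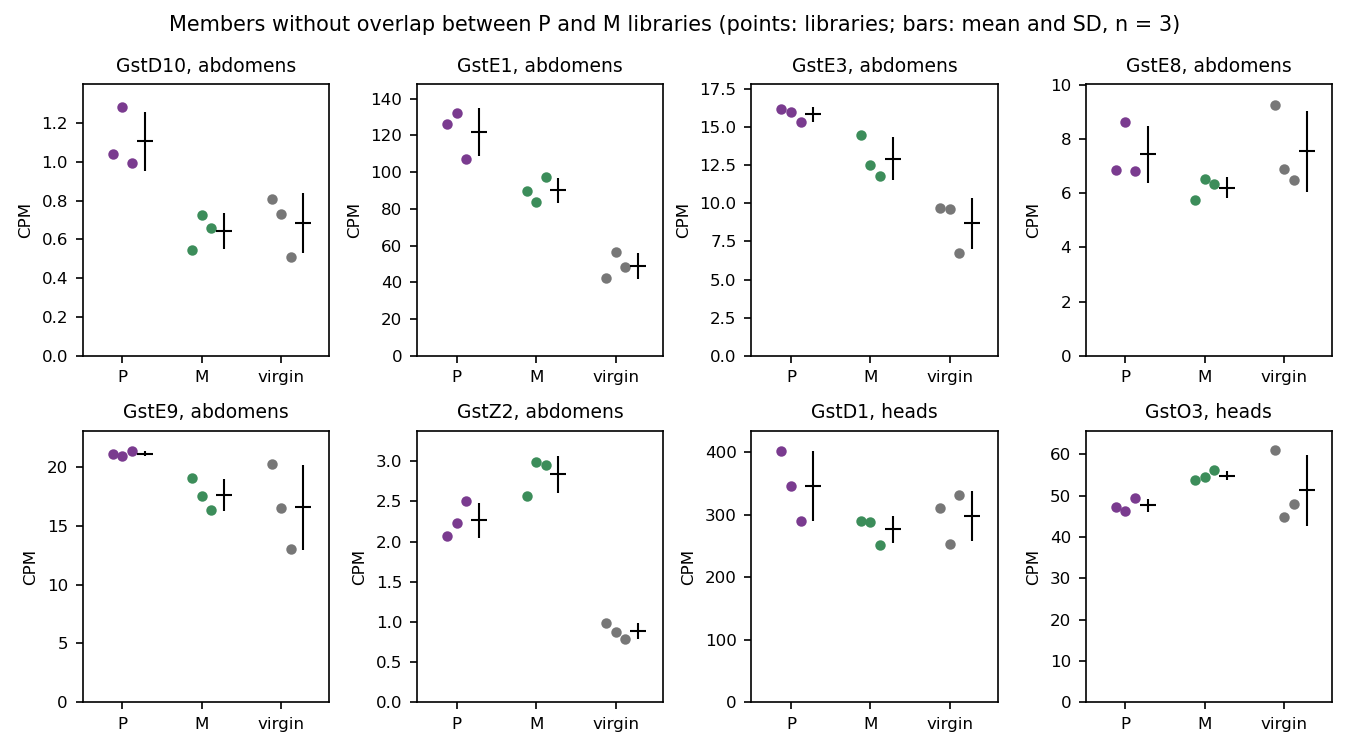
CPM of the tested members whose P and M libraries did not overlap, 6 in abdomens and 2 in heads, with points for single libraries of the P, M and virgin groups and a bar with a line for the mean and SD (n = 3), on axes from 0. GstE10 in heads, not tested because of its low counts, also had no overlap and is not shown. P lies above M for GstD10, GstE1, GstE3, GstE8 and GstE9 in abdomens and GstD1 in heads, and below M for GstZ2 in abdomens and GstO3 in heads, and none of these differences passed.

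Genes that make glutathione or act beside these enzymes gave a mixed picture in abdomens after mating. Over 7 lists with 48 tested genes, 11 rose (22.9%, against 29.0% of all genes) and 3 fell (6.25%, against 25.2%). None of the 3 tested genes of glutathione synthesis and turnover passed. Neither did cnc (0.01 ± 0.09), whose product is known to induce glutathione transferases, or Keap1 (0.16 ± 0.09), whose product inhibits it. Of the 4 regulators tested, Hr96, a nuclear receptor of the xenobiotic response, fell (-0.31 ± 0.07, adjusted p = 0.00347). It averaged 89.8 ± 3.46 CPM in mated (SD, n = 6) and 114 ± 9.14 CPM in virgin abdomens (SD, n = 3). Among 18 tested thioredoxin, peroxiredoxin and other antioxidant genes, 3 rose and 1 fell. The catalase gene Cat averaged 373 ± 20.4 CPM in mated and 253 ± 25.9 CPM in virgin abdomens (0.60 ± 0.09, adjusted p = 7.0e-04). The maternal thioredoxin dhd averaged 2177 ± 124 CPM in mated and 3039 ± 275 CPM in virgin abdomens (-0.45 ± 0.09, adjusted p = 0.00209).

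The counts of the following short lists stand beside 29.0% of all genes called higher and 25.2% called lower in abdomens. Of 9 tested detoxification genes of other families, 3 rose, among them the cytochrome P450 Cyp6a8 (1.14 ± 0.26, adjusted p = 0.00455) and the epoxide hydrolase Jheh1 (0.49 ± 0.12, adjusted p = 0.00681). Of 5 export transporters, Mrp4 (0.71 ± 0.14, adjusted p = 0.00197) and Mdr65 (0.48 ± 0.19, adjusted p = 0.0489) rose. Of 5 genes of tyrosine breakdown, the pathway of the zeta-class isomerase, 3 rose, among them the phenylalanine hydroxylase Hn (0.98 ± 0.17, adjusted p = 0.00124) and the fumarylacetoacetase Faa (0.65 ± 0.21, adjusted p = 0.0221). Of 4 tested genes that hold a glutathione transferase fold or activity but lie outside the naming rule, gfzf fell (-0.35 ± 0.07, adjusted p = 0.00312). The list medians were 0.08 for detoxification, 0.40 for export and 0.57 for tyrosine breakdown, beside 0.04 over all genes. Muscle, renal tubule and fat body genes had medians of 1.00, 0.88 and 0.71 in the same comparison, and the part of those tissues in the values for tyrosine breakdown was not tested. The summed level of the 5 tyrosine breakdown genes was 83.6 to 119 CPM in mated and 44.8 to 71.4 CPM in virgin abdomens, but 858 to 1023 CPM in mated and 1045 to 1135 CPM in virgin heads. None of the 5 passed in heads, where their median change was -0.23.

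In heads, 4 of the 48 tested genes of these lists were called (8.33%, against 2.21% of all genes). Prx4, a peroxiredoxin (-0.46 ± 0.10, adjusted p = 0.0430), Cyp12d1-p, a cytochrome P450 with a near-identical copy (-0.76 ± 0.15, adjusted p = 0.0424), and Mdr65 (-0.51 ± 0.10, adjusted p = 0.0315) fell. The omega-type enzyme gene sepia (se), known for its role in making the red eye pigment, rose (0.53 ± 0.11, adjusted p = 0.0400). It averaged 58.7 ± 6.51 CPM in mated (SD, n = 6) and 41.9 ± 6.10 CPM in virgin heads (SD, n = 3), and shares 61 exon bases with GstO2 on the opposite strand. Between P and M mates no gene of these lists was called in either tissue.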

How the data were processed

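Per the submitters' processing notes, Trimmomatic 0.33, TopHat2 2.1.0 and HTSeq 0.6.1 were used with the BDGP6 assembly. The annotation release and the strand setting were not given in the sources used here. The deposited table held whole-number counts per gene that the authors had not normalised, in 36 columns for 2 sequencing runs of each of 18 libraries. Both runs of a library, paired by their column names, were summed and counted as 1 replicate. Their counts differed by more than counting error alone, with a chi-square per degree of freedom of 1.81 to 3.32 where counting error gives about 1. Nothing in the labels says that virgin pools came from separate cultures. In the virgin groups the p-values cover the spread among pools alone. In the mated groups, where each pool stands for 1 male population, they cover the spread among pools and male populations together. Symbols were found for 17387 of 17552 identifiers. Symbols, positions and exon lengths (the union of exons) came from the Ensembl annotation of BDGP6. No sequences were used here.

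Counts were tested with edgeR 4.0.16 in R 4.3.3 (quasi-likelihood, TMM, the package's expression filter, robust dispersions, prior count 2), with Benjamini-Hochberg adjustment over all genes tested. Each tissue had its own model of 3 groups, and 18 libraries entered the tissue comparisons. There, heads and abdomens from mates of the same male population were not paired. Standard errors were obtained as log2 change over the square root of F. Printed CPM are counts scaled to a library total of 1000000, without TMM factors, which ranged from 0.949 to 1.03 within a tissue. In the fit of 18 libraries the factors were 0.856 to 0.939 for heads and 1.09 to 1.17 for abdomens. The common biological variation (as a coefficient) came to 0.172 for abdomens and 0.272 for heads.

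Alternatives were DESeq2 1.42.0, its size factors in edgeR, no filter, single runs, a replicate block, scaling on muscle and tubule genes, a midgut protease covariate and leaving out libraries. Leaving out abdomens P1, P3 and M2 together, and the tissue comparisons without 3 heads, were chosen after seeing the data, as was the list of early zygotic genes. The members and all 14 gene lists were chosen with earlier results of these data known. Members named with values per library were up to 6 called rises and 6 called falls with mating per tissue at a mean log2 CPM of at least 1, the 3 smallest p where fewer than 3 were called, the 5 highest per kilobase, 3 tissue differences each way, and GstD1, GstS1, GstE14 and GstZ2. From each pathway list, up to 2 called genes of smallest p were named. GstD2, GstD5 and other members outside the rule were named after their values were seen.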

Additional observations from a re-analysis of the deposited data

Results flagged for a closer look

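Among the 6 mated libraries of a tissue, 1 library stood far from the others for a few members (Dixon's test, 6 of 40 sets of values from 20 named members). These sets come from the same libraries, join P with M, and include members named for their values. No chance rate is therefore set beside the count. In heads, P1 was high for GstE1 at 349 CPM and for GstE8 at 1.70 CPM, M2 was high for GstS1 at 114 CPM, P2 was low for GstZ2 at 24.3 CPM, and M3 was high for GstE10 at 0.571 CPM. In abdomens, M3 was high for GstE4 at 0.244 CPM, which is 10 counts. Head M2 also held midgut protease transcripts.

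The mating effect differed between abdomens and heads, abdomen minus head on the log2 scale, for GstZ2 by 1.20, GstE3 by 0.84, GstO3 by 0.72, GstE5 by 0.64, GstE1 by 0.60, GstS1 by 0.53, GstE14 by 0.52 and GstE12 by 0.48. In 13 of the 18 fits that left out a library, GstE1 did not pass (adjusted p 0.00265 to 0.131), and in 7 of them GstE5 did not (0.00478 to 0.0990). GstE14 did not pass without head virgin 3 or without abdomen virgin 3, and GstS1 did not without head virgin 3 (highest adjusted p 0.0576 and 0.0564).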

How the results depend on the processing

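Of 462 recomputed values of single named members, 445 kept their direction and their side of the threshold. In abdomens, scaling on muscle and renal tubule genes shifted all genes by -0.91, so that 1 member was called higher after mating and 20 lower. GstE1 stayed positive without passing (0.22, adjusted p = 0.15). GstO3 (-0.07), GstE10 (-0.07) and GstE3 (-0.14) became negative without passing. GstE12 (-0.32, adjusted p = 0.0222) and GstS1 (-0.63, adjusted p = 7.8e-05) were called lower. Relative to the median of all genes, GstO3, GstE10, GstE3 and GstE12 stayed at 0.79, 0.79, 0.72 and 0.55, which a shift shared by all genes fixes in advance. The second run alone, with 28 members tested, left 1 member lower. With DESeq2, 1 member was lower in heads after mating. Without the 3 heads with midgut transcripts, the tissue difference in mating effect was called for 5 members. Leaving out 1 library at a time gave 7 to 10 members higher and 0 to 3 lower after mating in abdomens, the 0 without virgin 1. It gave 14 to 17 members higher and 17 lower in abdomens than in heads. For the tissue difference in mating effect it gave 4 to 10 members higher (4 without head virgin 3) and 0 to 1 lower (1 without head P2), and 0 in each other comparison. The share of all genes called is not given here for these fits or for the replicate block below. These counts therefore do not set the members apart from all genes. The cause of these changes was not tested. Replicate numbers are shared between the P, M and virgin groups as numbers alone: same-numbered libraries of a tissue deviated together with correlations of -0.505 to 0.686. Between tissues, a mated head and abdomen of the same label share a male population. Same-labelled heads and abdomens, virgins included, deviated together with correlations of -0.323 to 0.206. With the replicate block, 8 members were higher and 2 lower after mating in abdomens, GstO2 being at -0.20 (adjusted p = 0.0771), and the tissue difference in mating effect was called for 6. GstE4 in abdomens and GstD7 and GstE10 in heads had too few counts to be tested within that tissue, and the size of their tissue differences is less certain.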
